A study of Mus musculus with 8 samples.

Results

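Translation factors are the proteins that bring the ribosome to a messenger RNA, choose its start codon and then carry the growing chain forward. The genes described here are all rows of the deposited table whose symbol begins with Eif (initiation) or Eef (elongation) followed by a digit, which also takes in the kinases that phosphorylate eIF2 and the proteins that hold back eIF4E. The rule found 68 members among 24630 genes and used no measured value. RNA was sequenced from muscle stem cells (satellite cells) of C57BL/6 males, comparing 4 mice at 4 months (young) with 4 at 22 months (old), and the labels name no treatment or engineered allele. Each library came from the limb muscles of a single animal and was made from cells that had been sorted without culture as CD45-, CD31-, Sca1- and VCAM+.

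Initiation is the step at which most control of protein synthesis acts. The factor eIF2 carries the initiator tRNA to the small ribosomal subunit, eIF3 holds the subunit open, and the eIF4F complex (cap-binding eIF4E, scaffold eIF4G, helicase eIF4A) recruits it to the capped end of the messenger. A pair of brakes is well known, namely phosphorylation of the alpha subunit of eIF2, which blocks its recharging by eIF2B, and the eIF4E-binding proteins, which the growth kinase mTORC1 inactivates. Quiescent satellite cells are known for a low rate of protein synthesis that is held down in part by eIF2 alpha phosphorylation. Messenger RNA levels say nothing of phosphorylation, which was not measured.

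Depth differed with age. The reads that fell in genes were 1.91 to 6.55 M (mega) in the young libraries and 20.0 to 24.8 M in the old, so depth and age cannot be told apart. All 8 listed satellite cell markers were detected and tested, with Pax7 at 17.7 ± 3.51 RPKM (SD, n = 4) in young and 10.7 ± 2.48 (SD, n = 4) in old. Among these 8 markers 1 rose and 4 fell, where 12.3% of all tested genes rose and 12.5% fell. On the scale the authors deposited, described below, 3 of the 8 rose and 1 fell, where 68.1% of all tested genes rose and 1.12% fell. Markers of tendon cells were higher in old libraries, where their summed level was 515 to 1573 RPKM against 197 to 303 in young, and all 5 tested tendon markers of the 6 listed rose. Summed endothelial markers were lower in old libraries, at 29.2 to 65.5 RPKM against 70.7 to 75.8 in young, with 0 of 3 tested markers called. Summed leukocyte markers stayed at 18.7 to 61.1 RPKM over the 8 libraries, and no marker of any of the 9 cell type lists was at 0 in every library of a group. The part of these cells in the results for the translation factors was not tested. In bulk RNA, fewer cells of a type and less RNA per cell cannot be told apart.

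Levels are given as RPKM on library totals, that is, reads per kilobase of gene length and per M of the library's own reads in genes, so that changes refer to the share of reads a gene takes. The 5703 genes with a mean deposited RPKM of at least 5 were tested by limma on log2(RPKM + 1), old against young, with Benjamini-Hochberg adjustment over all of them, and a gene was called at an adjusted p under 0.05. Changes are given in log2 units on this scale, with the standard error, and understate the change of genes with low values. On the scale the authors deposited, the tested genes had a median change of 0.64, against -0.01 on library totals, and every change below is relative to that shift.

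More translation factor transcripts took a larger share of reads in old cells than a smaller one. Of the 54 members that were tested, 14 rose, 0 fell and 40 did not pass, where 12.3% of all tested genes were called higher and 12.5% lower. The 0 is from limma with adjustment, and at an unadjusted p under 0.05 the members counted 22 higher and 1 lower, while limma-voom on recovered reads also called 0 lower. The log2 fold change was above 0 in 39 of the 54 members and in 49.3% of all tested genes, and its median was 0.23 in the members. For 15 tested members all 4 old libraries stood above all 4 young ones, as did 13.8% of the tested genes. For 1 tested member, Eef1akmt2, all old libraries stood below, as did 13.3%. Untested Eif2d, Eef2k, Eef2kmt, Eef1a2 and Eef1akmt3 also had all old libraries below. The share of all genes at such low levels that did so was not counted. The median change of all genes was -0.19 with a mean of at least 1 RPKM and -0.38 without a filter, against -0.01 in the tested genes. The filter for testing used deposited RPKM, on which old values were raised, so it admitted genes high in old more readily. Eif2ak1, among the 15, reached it only through its old values. The members together took 2.63% to 3.05% of the reads in young libraries and 2.93% to 3.53% in old ones, so the summed shares overlapped. On the deposited scale 48 members were called higher and 0 lower, with a median of 0.90, where 68.1% of all tested genes were higher and 1.12% lower.

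**Figure D1:**
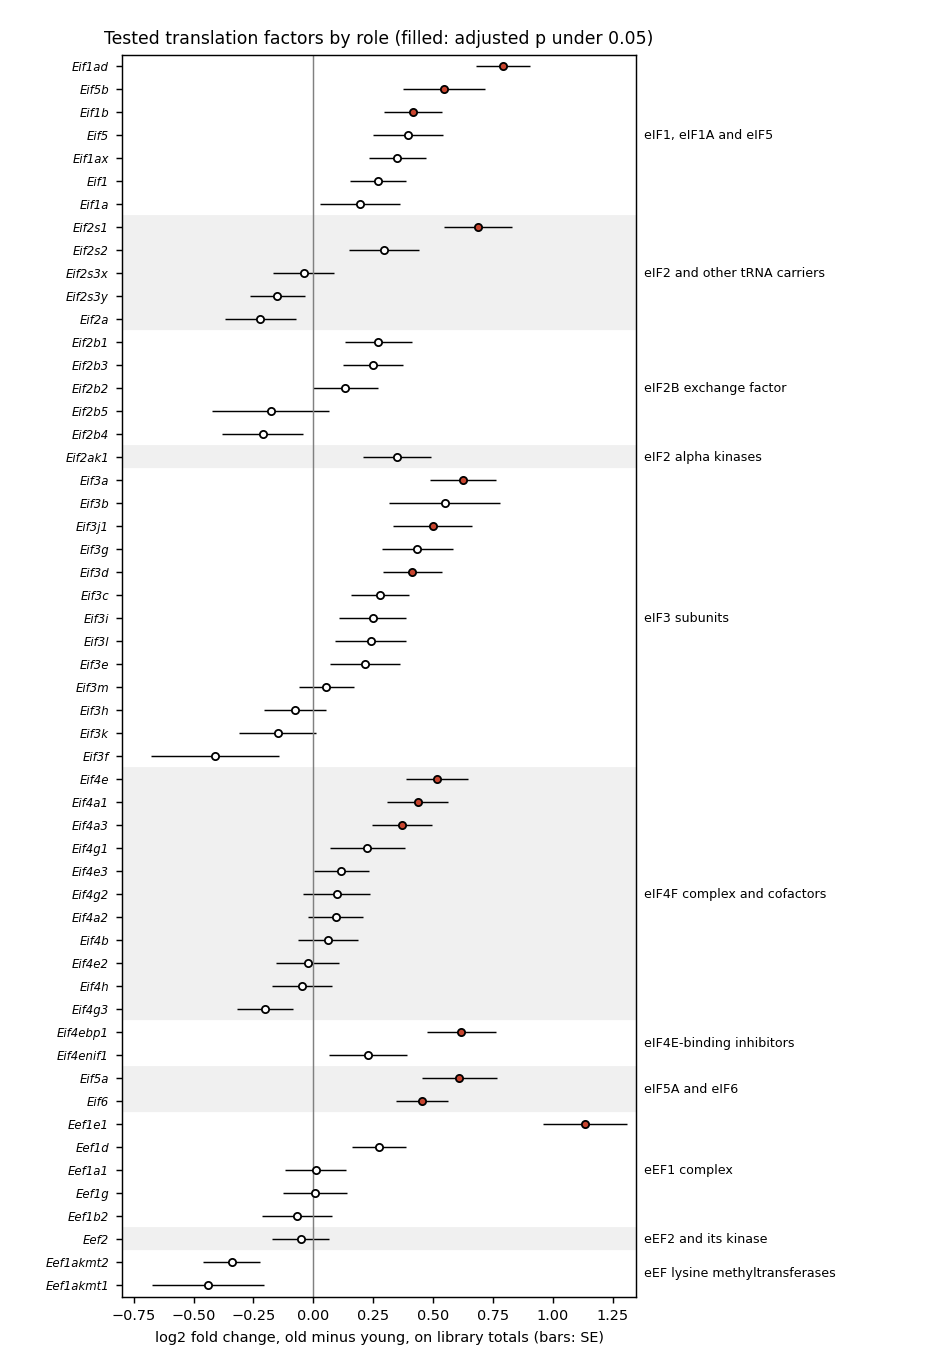
Log2 fold change (old minus young, on library totals) of the 54 tested translation factors, grouped by role, with bars for the standard error and filled points for the 14 that passed an adjusted p under 0.05. All 7 members listed with the start-codon factors, Eif1ad included, lie above 0. Of the core elongation factors, Eef1a1, Eef1g, Eef1b2 and Eef2 lie within 0.07 of it and Eef1d lies at 0.27.

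The count of 14 depended on single libraries. Eif1ad, Eef1e1, Eif2s1, Eif3a, Eif4ebp1, Eif6, Eif4e and Eif5a passed with any 1 of the 8 libraries left out, and the other 6 lost the call in 4 to 7 of these fits. The number of members called higher fell to 8 without young library 1 or young library 3 and to 9 without young library 4, old library 2 or old library 4. It was 7 without young libraries 1 and 2 together, the shallowest pair, where Eif4e (adjusted p = 0.0608) and Eif5a (adjusted p = 0.108) also lost the call. Old library 2 was the highest of the old libraries for 30 of the 54 tested members and for 9 of the 14 that rose, and without it 8 of the 14 kept their call. The same library had the lowest summed markers of the old group in 8 of the 9 cell type lists, tendon cells included, at 515 RPKM. In the remaining list, satellite cells, it was the highest old library, at 3197 RPKM against 2369 to 2957 in the other old libraries. Whether this bears on the calls was not tested.

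**Figure D2:**
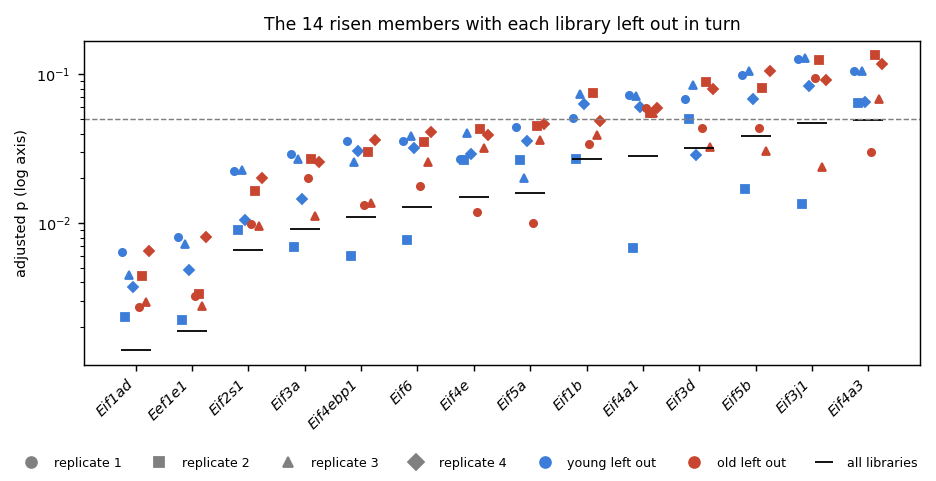
Adjusted p (log axis) of the 14 members that rose, with all libraries (black bars) and with each young (blue) or old (red) library left out. The dashed line is the threshold of 0.05. The 8 members at the left stay under it in all 8 fits, and the 6 at the right cross it in some.

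The promoters of several members that rose hold the letters CACGTG, the E-box bound by MYC and related proteins, and these stretches are shown to let the letters around the motif be compared between members. Only risen members were chosen for printing, so their shared direction follows from that choice. The letters read the same on both strands and were searched in windows of 250 bases before to 50 bases after each RefSeq start on GRCm38.p6. A window was found for 52 of the 68 members, 42 of them tested and 12 of those risen. The motif was present in 5 of these 12 (41.7%), namely Eif4e, Eif1b, Eif4a1, Eif5a and Eif3a, in 5 of the 30 uncalled members (16.7%) and in 13.1% of the 4467 tested genes with a window. Over all 32851 windows the share was 7.15%. Stretches of 30 bases are given 5′ to 3′ on the gene's strand with the E-box in capitals. The name on each line is followed by the position of the first capital from the start.
Eif4e, chr3:138527028-138527057, plus strand, position -228: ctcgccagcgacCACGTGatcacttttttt
Eif4e, chr3:138527192-138527221, plus strand, position -64: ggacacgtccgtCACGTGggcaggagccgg
Eif4a1, chr11:69672595-69672624, minus strand, position -189: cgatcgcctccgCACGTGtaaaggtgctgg
Eif5a, chr11:69920791-69920820, minus strand, position -178: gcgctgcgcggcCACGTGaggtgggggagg
Eif5a, chr11:69921443-69921472, minus strand, position -74: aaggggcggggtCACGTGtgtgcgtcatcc
Eif1b, chr9:120492570-120492599, plus strand, position -24: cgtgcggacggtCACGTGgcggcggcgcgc
Eif4e carries a pair of E-boxes before 1 start, and the Eif5a pair belongs to different annotated starts. The E-box of Eif3a lies after its start, at position 23. The uncalled members with the motif were Eef2, Eif3f, Eif3k, Eif4g1 and Eif4h, so the letters were also present before genes whose levels overlapped between the ages. For comparison, the ETS motif CCGGAAGT, searched on both strands, was in 2 of the 12 risen members (16.7%) and in 10.8% of the tested genes. The composite ATF4 motif TGATGNAAT, also searched on both strands, was in 0 of the 42 tested members and in 0.493% of the tested genes. An NRF1 motif, searched likewise, was in 0 of the 12 risen members and in 2.57% of the tested genes. A match is a description of the letters in a window and not a binding site.

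Of the 7 tested members listed as start-codon and subunit-joining factors, 3 rose, namely Eif1ad, Eif5b and Eif1b. Eif1ad is listed for its resemblance to eIF1A, and a role in these steps is not implied. All 7 had a log2 fold change above 0, from 0.20 to 0.79. Eif1ad, which encodes a protein with an eIF1A-like domain, stood at 29.8, 28.2, 32.0 and 34.0 RPKM in young libraries 1 to 4 and at 50.0, 56.7, 51.1 and 60.0 in old libraries 1 to 4. Every old library was well above every young one. The log2 fold change was 0.79 ± 0.11 (SE), a 1.73-fold higher share (adjusted p = 0.00141 by limma). In GENCODE M21 the gene shares 428 exonic bases with Banf1 on the opposite strand. The library kit does not mark strand, so reads of any shared bases that were counted cannot be assigned. The length behind its RPKM was 2469 bases, against 2792 in that annotation, so how much of the overlap was counted is unknown.

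Eif5b, the GTPase that joins the large subunit to the small one, was at 8.84, 11.7, 7.17 and 9.49 RPKM in the young libraries and at 12.1, 14.3, 11.5 and 18.4 in the old. The groups touched, since old library 3 lay just under young library 2. The change was 0.55 ± 0.17 (adjusted p = 0.0383 by limma). The adjusted p was 0.0982 without young library 1, 0.106 without young library 3, 0.0683 without young library 4, 0.0814 without old library 2 and 0.105 without old library 4. Eif5b shares 1643 exonic bases with the polymerase gene Rev1 on the other strand.

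Eif1b, a near copy of the scanning factor Eif1, rose from 27.0 ± 1.55 to 36.6 ± 5.18 RPKM (SD, n = 4 each), a change of 0.42 ± 0.12 (adjusted p = 0.027 by limma). Its highest old value, 44.3 in library 2, stood apart from the other 3 at 33.3 to 34.5. The adjusted p was 0.0507, 0.0741 and 0.0634 without young libraries 1, 3 and 4 and 0.0745 without old library 2. Eif1 itself, among the most abundant members, was at 1198 ± 44.9 in young and 1450 ± 149 in old, without overlap, yet did not pass (0.27 ± 0.12, adjusted p = 0.11). Eif1ax (0.35 ± 0.12, adjusted p = 0.0527) and Eif5 (0.39 ± 0.15, adjusted p = 0.0701), the activator of the eIF2 GTPase, did not pass either. Without old library 2, Eif5 passed with an adjusted p of 0.0295. Eif1a had an interval of -0.17 to 0.56 (95%), with old values from 255 to 454 RPKM. Eif1a and Eif1ax are near-identical copies, so how their reads were divided is uncertain.

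Among 5 tested carriers of the initiator tRNA, 1 rose, the alpha subunit of eIF2. Eif2s1, which encodes this subunit and bears the regulated phosphorylation site, was at 76.4, 82.6, 67.6 and 91.5 RPKM in young and at 115, 161, 117 and 124 in old libraries. No old value reached down to the young ones. The share rose 1.61-fold (log2 0.69 ± 0.14, adjusted p = 0.00665 by limma). The beta subunit Eif2s2 had a change of 0.29 ± 0.15 (adjusted p = 0.165). The gamma subunit is encoded by Eif2s3x and Eif2s3y on the X and Y chromosomes, with changes of -0.04 ± 0.13 and -0.15 ± 0.11 (adjusted p = 0.847 and 0.363), both above 0 on the deposited scale at 0.61 and 0.52. These copies are near-identical and were summed for the ratio that follows.

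Per unit of summed gamma-subunit level, Eif2s1 was at 2.00, 1.94, 1.75 and 1.95 in young libraries and at 3.30, 3.81, 3.12 and 3.17 in old ones. Every old ratio was above every young one, with means of 1.91 ± 0.111 and 3.35 ± 0.316 (SD, n = 4 each). For Eif2s2 per gamma subunit the means were 1.76 ± 0.276 and 2.34 ± 0.388. The old ratios lay above the young, but the groups nearly touched, at 2.04 in young library 1 and 2.06 in old library 1. The ratio of Eif2s1 to Eif2s2 overlapped between the ages, at 1.10 ± 0.201 and 1.46 ± 0.309. Such ratios are of length-corrected levels within a library and do not depend on how libraries are scaled to each other. They describe the 8 libraries and were not tested. The pairs for these and the later ratios were not fixed in advance. Where a risen member is set over an uncalled one, separation follows in part from that choice.

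The remaining carriers act outside the canonical route. Eif2a, which is not a subunit of eIF2, had a change of -0.22 ± 0.15 (adjusted p = 0.301; 0.45 on the deposited scale). Eif2d, which can deliver initiator tRNA without GTP, was under the level required for testing, at 3.18, 4.05, 4.27 and 3.77 RPKM in young and 1.89, 1.93, 2.01 and 1.73 in old. All old values lay below the young, and with genes of a mean of at least 1 RPKM admitted (11096 genes, 7.11% higher and 20.5% lower) its change was -0.73 ± 0.13 (adjusted p = 0.0048 by limma).

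The exchange factor eIF2B, which recharges eIF2 with GTP, showed no called subunit among 5 tested. The changes were 0.27 for Eif2b1, 0.13 for Eif2b2, 0.25 for Eif2b3, -0.21 for Eif2b4 and -0.18 for Eif2b5, with adjusted p from 0.169 to 0.63 by limma. On the deposited scale the latter pair were above 0, at 0.40 and 0.45. The catalytic subunit gene Eif2b5 was the least precise, with a 95% interval of -0.72 to 0.36 and old values from 5.50 to 15.6 RPKM.

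The 4 eIF2 alpha kinases, each of which answers a different stress, were all at low level. Eif2ak1 (HRI, sensitive to haem) was the only one tested, at 3.67, 4.80, 4.31 and 4.59 RPKM in young and 5.70, 6.36, 5.03 and 6.15 in old. The groups were separate, but the change of 0.35 ± 0.14 did not pass (adjusted p = 0.0955), and 487 of its exonic bases are shared with Aimp2 on the other strand. Eif2ak1 reached the filter only through the old group, with mean deposited RPKM of 3.42 in young and 7.46 in old. A gene admitted in this way is likelier to stand higher in old. Eif2ak2 (PKR, sensitive to double-stranded RNA) was at 3.64, 6.97, 2.12 and 4.51 in young and 4.62, 3.60, 2.19 and 2.75 in old.
Those groups overlapped throughout, as did those of the last pair. Eif2ak3 (PERK, sensitive to unfolded protein in the endoplasmic reticulum) was at 0.740, 1.83, 0.837 and 0.993 in young and 0.911, 1.04, 0.763 and 1.74 in old. Eif2ak4 (GCN2, sensitive to uncharged tRNA) was at 2.59, 4.36, 2.40 and 2.93 in young and 2.38, 1.87, 2.32 and 3.13 in old. With genes of at least 1 RPKM admitted, their changes were -0.26 ± 0.27, 0.02 ± 0.23 and -0.24 ± 0.18, none called. For Eif2ak3 these values rest on 12 to 34 reads per young library.

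Within eIF3, the large scaffold on the small subunit, 3 of 13 tested subunits rose and 10 had a change above 0, with a median of 0.25. Eif3a, the largest subunit, stood at 97.5, 119, 84.4 and 117 RPKM in young and at 162, 183, 143 and 156 in old libraries. The lowest old library was above the highest young one. Its change was 0.63 ± 0.14 (1.54-fold, adjusted p = 0.00917 by limma). Eif3h, a subunit of the same complex, was at 285 ± 34.6 in young and 270 ± 29.8 in old (-0.08 ± 0.13, adjusted p = 0.697; 0.62 on the deposited scale). The ratio of Eif3a to Eif3h was 0.366 ± 0.0358 in young and 0.598 ± 0.0497 in old (SD, n = 4 each) and did not overlap. This pair sets a risen subunit over an uncalled one, so its separation follows in part from that choice.

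Eif3d, a subunit that can itself contact the cap of some messengers, rose from 75.2 ± 7.56 to 101 ± 12.1 RPKM (SD, n = 4 each), by 0.41 ± 0.12 (adjusted p = 0.0321 by limma). The adjusted p was 0.0683, 0.0504 and 0.0844 without young libraries 1, 2 and 3, and 0.0894 and 0.0794 without old libraries 2 and 4. In GENCODE M21 Eif3d shares 2151 exonic bases with the antisense gene Gm17638. The length behind its RPKM was 1910 bases, against 4968 in that annotation, so how much of the overlap was counted is unknown. Eif3j1, for the loosely bound subunit, was at 12.4, 18.0, 11.2 and 13.9 in young and at 20.9, 23.9, 15.5 and 19.3 in old. Young library 2 was above old library 3, so the groups overlapped. The change was 0.50 ± 0.17 (adjusted p = 0.047 by limma).

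The call for Eif3j1 was among the least stable. Its adjusted p was 0.126, 0.128 and 0.0839 without young libraries 1, 3 and 4, and 0.0948, 0.125 and 0.0918 without old libraries 1, 2 and 4. Its near copy Eif3j2 was at 0.715 ± 0.360 in young and 0.531 ± 0.326 RPKM in old (SD, n = 4 each), and 1107 exonic bases of Eif3j1 lie opposite Spg11.

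Eif3g, which binds RNA, stood close to the threshold at 0.43 ± 0.15 (adjusted p = 0.052) and passed without young library 2 (adjusted p = 0.0182) or old library 3 (adjusted p = 0.034). Eif3b had a change of similar size, 0.55 ± 0.23, that did not pass (adjusted p = 0.108), and its old values ran from 22.0 to 50.3 RPKM, with library 4 the highest. The other subunits ranged from -0.41 ± 0.27 for Eif3f to 0.28 ± 0.12 for Eif3c. Eif3f and Eif3k, both below 0 on library totals, were above it on the deposited scale, at 0.19 and 0.53.

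Of the 11 tested members named eIF4 that bind the cap, unwind RNA or assist these steps, 3 rose, namely Eif4e, Eif4a1 and Eif4a3, the last of which is not part of eIF4F. Eif4e, the cap-binding protein, was at 104, 85.0, 94.6 and 101 RPKM in young and at 116, 164, 139 and 135 in old libraries. The groups were separate, with old library 1 the nearest to the young. The share rose 1.43-fold (log2 0.52 ± 0.13, adjusted p = 0.015 by limma). Its relatives Eif4e2 and Eif4e3 did not pass, with changes of -0.02 ± 0.13 (0.60 on the deposited scale) and 0.12 ± 0.11.

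Eif4a1, the main scanning helicase, rose from 93.8 ± 15.2 to 126 ± 3.27 RPKM (SD, n = 4 each), by 0.44 ± 0.13 (adjusted p = 0.0283 by limma). Its close relative Eif4a2 was at 106 ± 11.5 and 113 ± 6.21, a change of 0.09 ± 0.12 (adjusted p = 0.589). Eif4a1 per Eif4a2 was 0.892 ± 0.172 in young and 1.12 ± 0.0796 in old libraries, with every old ratio above every young one. The call for Eif4a1 held with all libraries or without young library 2, and the adjusted p was 0.0720, 0.0719 and 0.0598 without young libraries 1, 3 and 4, and 0.0596, 0.0551, 0.0550 and 0.0597 without old libraries 1 to 4. Small nucleolar RNA genes lie within its exons on the same strand. Processed pseudogenes of Eif4a1, Eif5a and Eef1a1 are also known, so part of their reads could have been placed elsewhere.

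Eif4a3, the third of these helicases by name, belongs to the exon junction complex. It rose from 81.0 ± 4.61 to 106 ± 15.1 RPKM (SD, n = 4 each), by 0.37 ± 0.12 (adjusted p = 0.0493 by limma), at the edge of the threshold. Its adjusted p was 0.105, 0.0637, 0.106 and 0.0647 without young libraries 1 to 4, and 0.134, 0.0678 and 0.117 without old libraries 2, 3 and 4. The genes named Eif4g, not all of which need be scaffolds of eIF4F, did not pass. Their changes were 0.23 ± 0.16 for Eif4g1, 0.10 ± 0.14 for Eif4g2 and -0.20 ± 0.12 for Eif4g3 (0.43 on the deposited scale). The helicase cofactors Eif4b and Eif4h were at 0.06 ± 0.12 and -0.05 ± 0.13 (adjusted p = 0.749 and 0.815). On the deposited scale all 11 were called higher, with a median of 0.78.

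The proteins that hold eIF4E back gave a rise in the gene at the highest level. Eif4ebp1, the binding protein that mTORC1 inactivates, was at 35.2, 49.6, 42.6 and 38.2 RPKM in young and at 55.7, 67.5, 57.0 and 76.2 in old libraries. All old values exceeded all young ones. The share rose 1.54-fold (log2 0.62 ± 0.14, adjusted p = 0.011 by limma).
Eif4e and this inhibitor thus rose side by side, and their ratio overlapped between the ages. Eif4ebp1 per Eif4e was 0.338, 0.584, 0.450 and 0.379 in young and 0.480, 0.411, 0.411 and 0.563 in old, with means of 0.438 ± 0.108 and 0.466 ± 0.0726 (SD, n = 4 each). Both extremes of the young group lay outside the old range.

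Eif4ebp2, the second such protein, was at 1.87, 1.17, 1.11 and 1.58 RPKM in young and 1.87, 1.11, 1.42 and 1.40 in old, from as few as 4 reads in a young library. The groups overlapped fully, and the change with genes of at least 1 RPKM admitted was 0.01 ± 0.18 (adjusted p = 0.964 by limma). Eif4ebp3 had 0 to 2 reads in each young library and 0 to 5 in each old one, which is at or near the floor of 3 reads. Eif4enif1, which carries eIF4E into the nucleus, had a change of 0.23 ± 0.16 (adjusted p = 0.333).

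**Figure D3:**
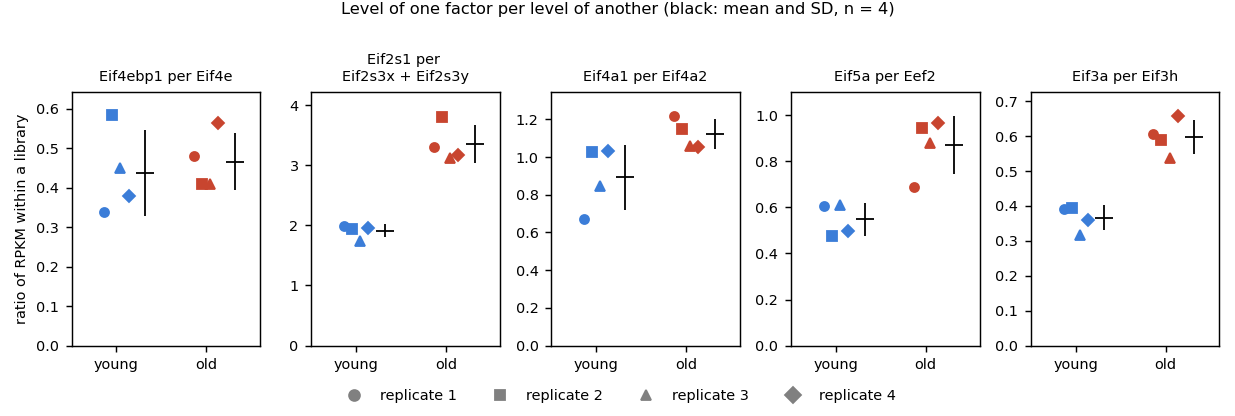
Ratio of the level of one factor to another within each library (RPKM over RPKM), young in blue and old in red, with the mean and SD (n = 4) in black. Eif4ebp1 per Eif4e overlaps between the ages, whereas in the other 4 panels every old library lies above every young one. Those 4 panels set a risen member over uncalled ones, so the separation follows in part from the choice of pairs.

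Eif5a and Eif6 both rose, the 2 tested members of their group. Eif5a carries the hypusine residue and helps ribosomes past difficult stretches such as runs of proline. It was at 681, 526, 782 and 664 RPKM in young and at 801, 1158, 1062 and 1026 in old libraries. The nearest values, young library 3 and old library 1, differed by little. The share rose 1.53-fold (log2 0.61 ± 0.16, adjusted p = 0.0159 by limma). Its sister gene Eif5a2 was at 1.99 ± 0.593 in young and 1.71 ± 0.273 in old.

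Eif6 keeps the large subunit from joining too early. It was at 39.3, 46.5, 39.1 and 41.0 RPKM in young and at 52.5, 59.0, 55.7 and 61.4 in old libraries, a tight and separate pair of groups. The change was 0.45 ± 0.11 (1.37-fold, adjusted p = 0.0129 by limma), and 0.50 without young libraries 1 and 2 (adjusted p = 0.0304). An antisense gene, Gm16098, overlaps 138 of its exonic bases.

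Of the 5 core elongation genes, Eef1a1, Eef1b2, Eef1d, Eef1g and Eef2, 0 were called, where 12.3% of all tested genes were called higher, and at an unadjusted p under 0.05 it was 1, Eef1d. Eef1a1, which delivers aminoacyl-tRNA to the ribosome and was the most abundant member, stood at 2696, 2602, 3014 and 3346 RPKM in young and at 2676, 3285, 2948 and 2802 in old libraries. The old values lay within the young range. The change was 0.01 ± 0.13 (adjusted p = 0.966), with a 95% interval of -0.27 to 0.29. It turned negative in some fits, to -0.12 without young libraries 1 and 2.

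Eef2, the translocase, was at 1122, 1105, 1280 and 1338 RPKM in young and at 1162, 1229, 1208 and 1062 in old. The groups overlapped, with a change of -0.05 ± 0.12 (adjusted p = 0.768) and a 95% interval of -0.31 to 0.21. Of the subunits that recharge eEF1A, Eef1g was at 0.01 ± 0.13, Eef1b2 at -0.07 ± 0.15 and Eef1d at 0.27 ± 0.11 (adjusted p = 0.972, 0.763 and 0.0994). For Eef1d the interval was 0.03 to 0.52. On the deposited scale all 5 core genes were called higher, at 0.62 to 0.95, a span that holds the shift of 0.64 of all genes. A missed threshold does not show that levels were equal, but for Eef1a1 and Eef2 a change beyond 0.31 in size lies outside the intervals. Eif5a per Eef2 was 0.547 ± 0.0713 in young and 0.869 ± 0.125 in old libraries (SD, n = 4 each), without overlap.

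**Figure D4:**
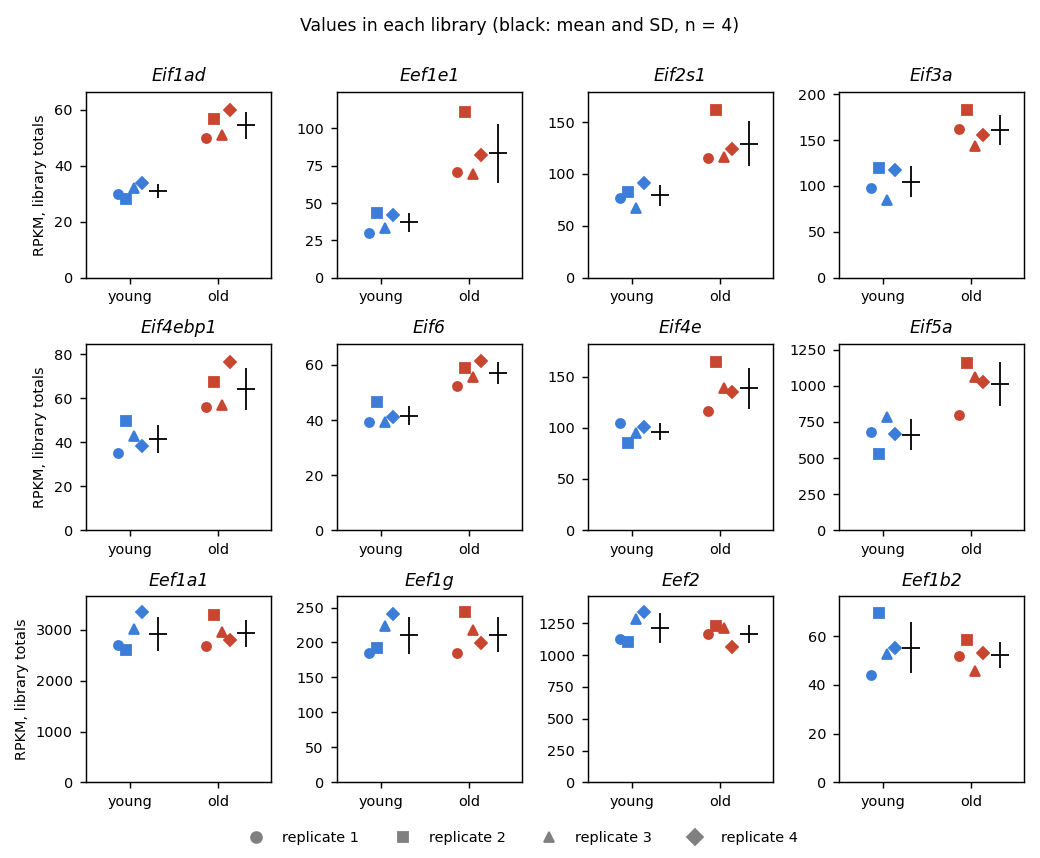
RPKM on library totals in each library (symbols by replicate number, which the labels do not call a pairing), with the mean and SD (n = 4) in black. Drawn are the 8 members that passed with any library left out and 4 of the 5 core elongation factors (bottom row, without Eef1d). Old libraries lie above young ones in the top 8 panels, and the groups overlap in Eef1a1, Eef1g, Eef2 and Eef1b2.

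The member of the eEF1 group that rose was Eef1e1, which in spite of its name encodes a scaffold of the multi-tRNA synthetase complex. It was at 29.9, 43.2, 33.2 and 42.1 RPKM in young and at 70.6, 111, 69.2 and 82.1 in old libraries. The groups were far apart, with old library 2 the highest. Its change of 1.14 ± 0.17 (2.20-fold, adjusted p = 0.0019 by limma) had the largest size of the 54 tested members, and it was 1.11 without young libraries 1 and 2 (adjusted p = 0.0157).

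On library totals, mean levels were lower in old cells for the kinase of eEF2 and for 4 of the 5 methyltransferases of the elongation factors. Of the 2 methyltransferases tested 0 were called. Among all 5703 tested genes 2893 had a change below 0, and the median was -0.19 with genes of at least 1 RPKM admitted. On the deposited scale Eef1akmt1, Eef1akmt2 and Eef2kmt had higher means in old. Eef2k, which phosphorylates and slows eEF2, was under the level required for testing, at 2.86, 3.96, 3.49 and 3.59 RPKM in young and 2.49, 1.58, 2.09 and 1.94 in old libraries. Every old value lay below every young one. With genes of at least 1 RPKM admitted its change was -0.57 ± 0.15 (adjusted p = 0.018 by limma), in a setting where 20.5% of all tested genes were called lower. Eef1akmt2, a lysine methyltransferase of eEF1A, was at 14.4 ± 1.45 in young and 11.2 ± 1.06 in old, without overlap (-0.34 ± 0.12, adjusted p = 0.0553; 0.30 on the deposited scale), and passed without young library 4 (adjusted p = 0.0448). Eef1akmt1 had -0.44 ± 0.23 (adjusted p = 0.193; 0.17 on the deposited scale), from 14 to 52 reads in a young library.

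The other untested members were low in both groups. Eef1aknmt was at 3.09 ± 0.934 in young and 4.87 ± 1.20 RPKM in old, and Eef2kmt at 4.27 ± 0.493 and 3.82 ± 0.0959 (SD, n = 4 each). Eef1akmt3 was at 1.54 ± 1.47 and 0.187 ± 0.0995, and Eef1a2, the muscle fibre form of eEF1A, at 0.879 ± 0.746 and 0.114 ± 0.0895. For the latter pair the young values rest on 3 to 21 reads per library. In Eef2kmt, Eef1akmt3 and Eef1a2 every old value lay below every young one. For Eef2kmt the groups nearly touched, with the highest old value at 3.91 and the lowest young value at 3.93. The share of all genes at such levels that separated in this way was not counted. Eif4e1b, an oocyte form of eIF4E, had 0 to 4 reads in a young and 0 to 1 in an old library, so no fold is given.

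Of 65 listed partners of these factors 64 were in the table and 39 were tested. Among them 4 rose, 3 fell and 32 did not pass, with a median change of 0.08. These counts are no higher than the shares of all tested genes, 12.3% called higher and 12.5% lower. Larp1, which binds messengers of the translation machinery under mTORC1, rose from 13.7 ± 1.95 to 23.0 ± 4.67 RPKM (0.70 ± 0.15, adjusted p = 0.00809 by limma). Sesn1, an inhibitor of mTORC1 signalling, fell from 8.82 ± 1.42 to 4.17 ± 0.690 (-0.92 ± 0.16, adjusted p = 0.00286; -0.34 and not called on the deposited scale). These 2 were the called genes among 14 tested for mTORC1 and eIF4F control, which had 7 changes above 0 and 7 below.

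Among 11 tested genes of a list that joins partners and targets of eIF2 phosphorylation with reinitiation factors, 1 rose and 1 fell. Trib3, a target of the ATF4 programme, rose by 0.55 ± 0.17 (adjusted p = 0.033), and Mcts1, a partner of Denr in reinitiation, changed by -0.61 ± 0.13 (adjusted p = 0.00743; 0.021 and not called on the deposited scale). Atf4, whose messenger is translated when eIF2 alpha is phosphorylated, was at 251 ± 31.6 in young and 296 ± 23.4 RPKM in old (0.24 ± 0.12, adjusted p = 0.173). Ddit3 (-0.10 ± 0.14; 0.55 on the deposited scale) and the phosphatase subunit Ppp1r15a (-0.20 ± 0.22; 0.50 on that scale) did not pass. Dph2, which helps build the diphthamide residue of eEF2, rose from 7.17 ± 2.02 to 20.0 ± 4.35 RPKM (1.37 ± 0.20, adjusted p = 0.00155 by limma), while eEF2 messenger overlapped between the ages. The mitochondrial elongation factor Tufm rose by 0.51 ± 0.14 (adjusted p = 0.0194) and the selenocysteine factor Eefsec changed by -0.56 ± 0.15 (adjusted p = 0.018; 0.029 and not called on the deposited scale). The calls for Eefsec, Tufm and Trib3 depended on single libraries. For Eefsec the adjusted p was 0.0568 without young library 3 and 0.0511 without old library 2. For Tufm it was 0.0648 and 0.0510 without young libraries 1 and 3, and 0.0543 and 0.0600 without old libraries 2 and 4. For Trib3 it was 0.0620, 0.0547 and 0.0812 without young libraries 1, 2 and 4, and 0.0725, 0.0571 and 0.0917 without old libraries 1, 3 and 4. None of the 4 tested termination and recycling factors and neither of the 2 tested scanning helicases, Ddx3x and Ddx3y, passed, and all 6 had a change above 0.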

How the data were processed

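Quiescent muscle stem cells of 4 young and 4 old mice were compared, with 1 library per animal. The authors deposited 1 table of RPKM for 24630 genes and 8 libraries. Per the submitters' processing notes, Trim Galore, STAR, featureCounts, Subread and edgeR were used with mm10 and GRCm38. Versions and settings were not given in the sources used here. Per the labels' protocols, 10 ng of RNA was copied by oligo(dT) priming with the SMARTer system, which does not mark strand, and sequenced in 101-base paired reads.

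Reads per gene and library totals were recovered, since 100% of the genes held whole multiples of what 1 read is worth (largest distance from whole 0.00026, tolerance 0.03). A small positive value stood in place of zeros in 8293 genes. A floor of 3 reads in a gene of 1 kb was 0.458 to 1.57 RPKM on library totals in young and 0.121 to 0.150 in old libraries, which covers counting error only. ERCC spike-in RNA was added per the labels, and scaling per cell is not analysed here.

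RPKM were rescaled to library totals, log2(RPKM + 1) was taken, and the trend method of limma 3.58.1 in R 4.3.3 was applied to genes with a mean deposited RPKM of at least 5, with no covariate. Values in every library are given for regulators and single-gene steps and for called members with a log2 fold change of at least 0.5 in size, and other members by change and range. The members and lists were chosen with earlier results of these data known. Promoter sequences are from RefSeq on GRCm38.p6, and gene overlaps from GENCODE M21.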

Additional observations from a re-analysis of the deposited data

Results flagged for a closer look

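In 7 of 108 groups of 4 libraries (54 tested members in each age), the highest or lowest library stood far from the other 3, by a gap past Dixon's 95% critical value. Chance flags about 1 in 20 groups. In old library 2 this was the highest value of Eif1b (44.3 RPKM on library totals, others 33.3 to 34.5), of Eif2a (22.9, others 19.1 to 19.5) and of Eif3e (399, others 275 to 287). In young library 4 it was the highest value of Eif2s3x (19.0, others 14.6 to 14.7) and of Eef1d (33.7, others 28.9 to 29.2). Old library 4 was highest for Eif2b4 (9.11, others 5.57 to 5.70), and young library 2 lowest for Eif3k (31.7, others 45.4 to 46.6). Of these genes only Eif1b was called, and its call was lost without old library 2 (adjusted p = 0.0745).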

How the results depend on the processing

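The 14 members that rose kept the call at a pseudocount of 0.1 and at the other filters on low values (mean RPKM of at least 1 or 10, or no filter), and 13 kept it with TMM factors over the tested genes. On the deposited scale 48 members were higher, with 32 pathway genes higher and 0 lower. Without young libraries 1 and 2, 7 members and 2 pathway genes were higher. At a mean RPKM of at least 1, 2 members and 9 pathway genes were lower, without a filter 5 and 12, and at a mean of at least 10, 0 and 1. With 1 library left out in turn, members higher ranged from 8 to 13, members lower from 0 to 1, pathway genes higher from 2 to 4 and pathway genes lower from 2 to 4. Thinning all libraries to the smallest total left 13 members higher, 12 of them among the 14.

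With the replicate number as a block, 14 members were higher and 0 lower, 13 of them among the 14, with Eif3g gained (adjusted p = 0.0444) and Eif4a3 lost (adjusted p = 0.0581). Nothing in the labels says that the numbers pair the animals. Same-numbered libraries had correlations of deviations from -0.228 to 0.384, and not every library correlated best with its own number. So few pairs cannot decide whether a number marks a shared batch. The edgeR and DESeq2 tests foreseen for recovered reads were not run. In their place limma-voom on recovered reads, chosen after seeing the data, gave 14 higher members on library totals, 13 of them among the 14, and 14 with TMM factors, 12 of them among the 14.

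Members below 0 on library totals lay above 0 on the deposited scale, where the median of all tested genes is 0.64, namely Eef1akmt1 (0.17), Eef1akmt2 (0.30), Eef1b2 (0.62), Eef2 (0.64), Eif2a (0.45), Eif2b4 (0.40), Eif2b5 (0.45), Eif2s3x (0.61), Eif2s3y (0.52), Eif3f (0.19), Eif3h (0.62), Eif3k (0.53), Eif4e2 (0.60), Eif4g3 (0.43) and Eif4h (0.64). None of these was called on library totals. Without young libraries 1 and 2 the sign turned for Eef1a1 (-0.121), Eef1g (-0.142), Eif2b2 (-0.0356) and Eif4b (-0.0238), and with thinned reads for Eef1a1 (-0.00158) and Eef1g (-0.0221). With 1 library left out, signs turned within -0.0473 to 0.0782 for Eef1a1, -0.170 to 0.0458 for Eef1b2, -0.0621 to 0.0749 for Eef1g, -0.365 to 0.0850 for Eif2b5, -0.113 to 0.0488 for Eif2s3x, -0.0100 to 0.0961 for Eif3m, -0.0991 to 0.0443 for Eif4e2 and -0.120 to 0.00799 for Eif4h. The cause was not tested. Some untested members rest on under 10 reads in a young library.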
